A study of Mus musculus with 4 samples.

Results

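The genes described here are 10 genes used to recognise circulating monocytes in mice: Ccr2, F13a1, Plac8, Ms4a4c, Ms4a6c, Mgst1, Cx3cr1, Nr4a1, Ace and Spn. They were matched by the symbol in the platform table to 19 probe sets that list 1 gene each, of 45101 probe sets on the array. All 10 were among the 12187 genes tested of 18193 with such a probe set. Ccr2 and F13a1 mark classical monocytes, and Cx3cr1, Nr4a1 and Ace mark non-classical monocytes.

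Monocytes leave the bone marrow in a classical state, which in mice carries Ly6C on the surface and depends on the chemokine receptor Ccr2 to enter the blood and inflamed tissue. In injured liver these cells become macrophages. Some classical monocytes convert in the blood to the non-classical state, which patrols the vessel wall, carries high Cx3cr1 and needs the nuclear receptor Nr4a1 to form. None of the 10 genes is limited to monocytes. Plac8 is also made by granulocytes, F13a1 by megakaryocytes and macrophages, Mgst1 by hepatocytes, Spn by T cells, Ace by endothelium, and Cx3cr1 by NK cells and tissue macrophages.

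The samples came from C57BL/6 mice with liver fibrosis, and all mice of both groups had received carbon tetrachloride, a liver toxin, at 1 ml/kg in 30 injections. The treated group was given recombinant human G-CSF, a granulocyte growth factor that also mobilises marrow cells, at 100 µg/kg. The control group was given a salt buffer (PBS) that held 0.1% albumin from mouse serum. Either was given over the 7 days that preceded the last toxin injection, and ages are not given in the labels. The labels give liver as the tissue and describe the cells as derived from bone marrow, with no sort described. Total RNA of 2 PBS and 2 G-CSF samples was hybridised to 1 Affymetrix array each, so the number of arrays limits the precision. The labels do not say whether the replicates were separate animals, and p-values therefore measure the spread between these arrays, which may be technical.

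Facts of the arrays bear on every gene below. PBS replicate 1 stood apart, with Pearson correlations over tested genes of 0.813 to 0.844 with the other arrays, against 0.974 between the G-CSF arrays. The median SD between replicates was 0.49 in PBS and 0.15 in G-CSF on the log2 scale. Gapdh control probe sets at the 3' end were brighter than those at the 5' end, an index of RNA integrity and labelling, by a factor of 15.7 and 14.8 in PBS and 20.2 and 19.1 in G-CSF. All 8 hepatocyte markers lay above background on all 4 arrays, with summed signals of 150000 to 252000. In such bulk RNA, fewer cells of a type and less RNA per cell cannot be told apart. Background here means the brightest of 27 bacterial control probe sets, at 106 and 94.6 on the PBS arrays and 86.4 and 63.0 on the G-CSF arrays. Signals below are given for replicate 1 and then replicate 2 of each group.

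RefSeq promoter sequences of 4 of the genes (GRCm38.p6) are shown to let the sites known for monocyte and immediate early genes be read beside the signals. Each covers the 250 bases before an annotated start, 5' to 3' on the gene's strand. F13a1, Ace and Plac8 are shown for the letters GAGGAA, the core of a site bound by PU.1, the transcription factor encoded by Spi1. Nr4a1 is shown for TGACG, the shorter element within the cyclic AMP response element (CRE). Capitals mark matches to either motif on either strand, read as their reverse complements TTCCTC and CGTCA on the other strand.

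F13a1 (chr13:37050245-37050494, minus strand): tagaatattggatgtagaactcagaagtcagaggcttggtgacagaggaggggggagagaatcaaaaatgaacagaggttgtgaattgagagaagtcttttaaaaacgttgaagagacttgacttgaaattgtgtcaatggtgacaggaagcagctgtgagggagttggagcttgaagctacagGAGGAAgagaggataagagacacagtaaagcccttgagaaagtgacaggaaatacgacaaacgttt

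Ace (chr11:105967698-105967947, plus strand): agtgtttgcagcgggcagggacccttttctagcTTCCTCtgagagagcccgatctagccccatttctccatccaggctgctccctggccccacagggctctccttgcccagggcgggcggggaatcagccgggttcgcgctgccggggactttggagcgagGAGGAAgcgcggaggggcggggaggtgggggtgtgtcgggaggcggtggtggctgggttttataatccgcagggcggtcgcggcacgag

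Plac8 (chr5:100572206-100572455, minus strand): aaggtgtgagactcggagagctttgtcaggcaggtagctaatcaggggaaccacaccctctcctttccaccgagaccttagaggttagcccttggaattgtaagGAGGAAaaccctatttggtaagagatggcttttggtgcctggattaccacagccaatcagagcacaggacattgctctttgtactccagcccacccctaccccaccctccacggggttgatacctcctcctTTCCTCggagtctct

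Nr4a1 (chr15:101266596-101266845, plus strand): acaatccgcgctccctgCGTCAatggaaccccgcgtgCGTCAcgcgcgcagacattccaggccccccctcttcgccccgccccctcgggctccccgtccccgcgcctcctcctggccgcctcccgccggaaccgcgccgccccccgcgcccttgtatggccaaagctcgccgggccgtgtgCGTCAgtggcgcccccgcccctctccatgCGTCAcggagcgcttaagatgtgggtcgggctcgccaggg

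In the window of F13a1 the PU.1 core starts at position -66 from the annotated start. In that of Ace it starts at -217 and -89, and in that of Plac8 at -146 and -15. Among the 14 windows of the 10 genes, the core was also found upstream of Ms4a4c and of the second start of Mgst1, so 5 of the 14 windows held it (35.7%), against 23.3% of all 32851 windows of this length. TGACG was found 4 times before Nr4a1, at -233, -213, -69 and -40, and once before the second start of F13a1. So 2 of the 14 windows held it (14.3%), against 17.8% of all windows. That share counts each window once, whatever its number of matches. The full CRE, TGACGTCA, was in 1.55% of all windows and in none of the 14. A C/EBP site, TTGCNNAA, lay before the second start of Plac8, which is not shown, and the first start of Mgst1. These were 2 of the 14 windows (14.3%), against 9.56% of all windows. The NR4A response element, AAAGGTCA, lay before none (1.34% of all windows). A match is a stretch of letters and does not show that a factor binds there.

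Differences between the groups are G-CSF minus PBS in log2(signal + 23), each with its standard error (SE, from the fit to 2 arrays a group), and this scale understates the change of weak signals. Of the 10 genes, 5 had groups that did not overlap and differed at least 2-fold, and all 5 were higher with G-CSF: F13a1, Ccr2, Ace, Ms4a4c and Plac8. Of all tested genes, 4.04% were higher by that rule and 1.52% lower, and 0 of the 10 genes were lower by it. With no limit on size, the groups of 18.6% of all genes did not overlap and were higher, and those of 12.1% lower, against 5 and 0 of the 10. No single difference passed limma's test after Benjamini-Hochberg adjustment over all genes, where 0% of the 12187 tested genes passed. At an unadjusted p below 0.05 in limma there were 4 of the 10 (F13a1, Ccr2, Plac8 and Ace), against 429 or 3.52% of all genes. The median difference of the 10 was 0.66, and that of all tested genes 0.07.

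**Figure D1:**
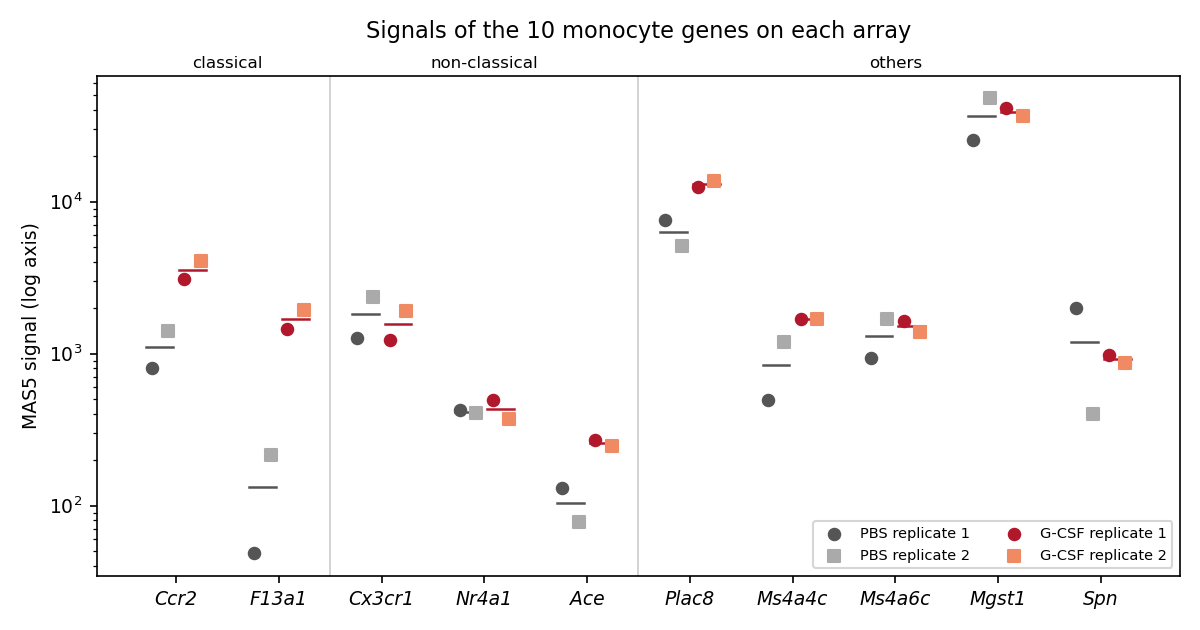
MAS5 signal (log axis) of each of the 10 genes, read from its brightest probe set, on each of the 4 arrays. Points are single arrays and short lines are group means. Both G-CSF arrays lie above both PBS arrays for Ccr2, F13a1, Ace, Plac8 and Ms4a4c and overlap them for the other 5.

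Of the classical genes, F13a1, which encodes the A chain of the transglutaminase factor XIII and is stored in monocytes, macrophages and platelets, had the largest difference of the 10. Its signals were 48.9 and 216 in PBS and 1460 and 1940 in G-CSF. Both G-CSF arrays lay far above both PBS arrays, and PBS replicate 1 lay below its background. The difference was 3.70 ± 0.64, or 13-fold (limma, adjusted p = 0.334), and only 0.230% of tested genes had a larger one. With a PBS signal at or near background its size depends on the scale, from 3.09 with a pseudocount of 92 to 4.01 with 1. F13a1 has 1 probe set on the array.

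Ccr2, the receptor for the chemokine Ccl2 and its relatives, had signals of 803 and 1400 in PBS and 3080 and 4050 in G-CSF. The groups did not overlap, and all 4 signals lay above background. The difference was 1.71 ± 0.42, or 3.28-fold (limma, adjusted p = 0.795), and 1.3% of tested genes had a larger one. Of the other 3 Ccr2 probe sets, 2 gave smaller differences of 0.90 ± 0.41 and 0.95 ± 0.53, again with no overlap. The last was at background on all 4 arrays, with signals of 27.1 to 48.9. With the mean of all 4 probe sets the Ccr2 difference was 0.89.

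**Figure D2:**
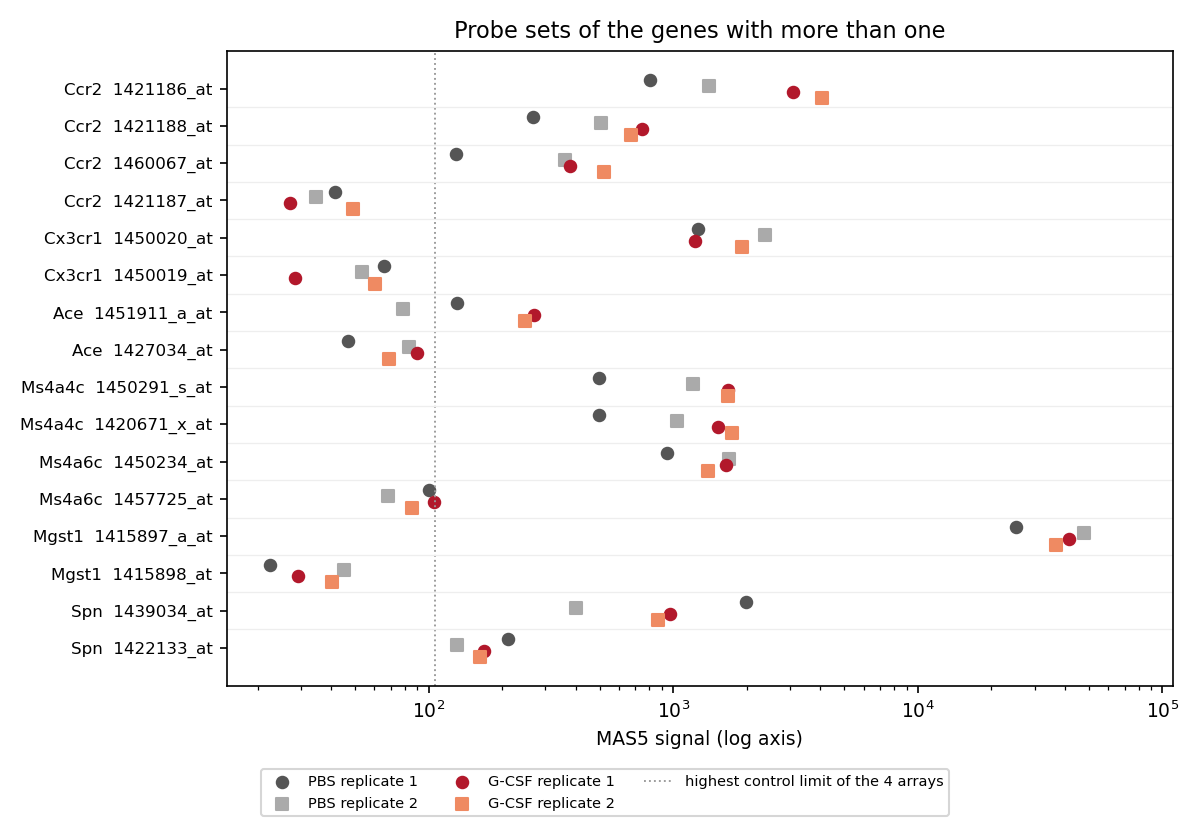
MAS5 signals (log axis) of every probe set of the 7 genes that have more than 1, on each of the 4 arrays, with the highest of the 4 background limits (106) as a dotted line. The 3 Ccr2 probe sets above background separate the groups, and the second probe sets of Cx3cr1, Ace, Ms4a6c and Mgst1 lie at or near background.

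Cx3cr1, the fractalkine receptor, did not separate the groups. Its signals were 1260 and 2370 in PBS and 1230 and 1920 in G-CSF, so that each G-CSF array lay close to or below a PBS array. The difference was -0.16 ± 0.47 (limma, adjusted p = 0.988), with a 95% interval from -1.36 to 1.03. It was 0.29 against PBS replicate 1 alone and -0.62 against PBS replicate 2 alone, so its direction depends on which PBS array is used. Its second probe set lay at background on all 4 arrays. Summed signals of the 9 Kupffer cell and macrophage markers were 12400 and 35400 in PBS and 25900 and 21700 in G-CSF, with Timd4 and Marco below background on all arrays. PBS replicate 2 was the highest array for both, and the part of macrophage RNA in the Cx3cr1 value was not tested.

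Nr4a1 (Nur77), the nuclear receptor on which non-classical monocytes depend and also an immediate early gene of many cells, had nearly equal signals of 423 and 407 in PBS and 496 and 369 in G-CSF. The G-CSF arrays lay on both sides of the PBS arrays. The difference was 0.04 ± 0.34 (limma, adjusted p = 0.996), with a 95% interval from -0.82 to 0.90, so that a change of somewhat under 2-fold either way lies within it. Its sign turned with the scaling, to -0.01 after median centring.

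Ace, angiotensin-converting enzyme, was the only one of the 3 non-classical genes whose groups did not overlap. Its signals were 131 and 78.7 in PBS and 271 and 248 in G-CSF, and PBS replicate 2 lay below its background. The difference was 1.18 ± 0.41, or 2.26-fold (limma, adjusted p = 0.988). The other Ace probe set had signals of 46.7 and 83.2 in PBS and 90.1 and 68.8 in G-CSF, at background in PBS, and its groups overlapped. With the mean of both probe sets the difference was 0.71, below 2-fold. Summed signals of the 8 endothelial markers were 1930 and 4640 in PBS and 4230 and 4960 in G-CSF, and their part in the Ace difference was not tested.

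The median difference of the 2 classical genes was 2.71, and that of the 3 non-classical genes 0.04. As a mean of log2 values centred on each gene, the classical genes stood at -1.98 and -0.72 in PBS and 1.15 and 1.55 in G-CSF. The non-classical genes stood at -0.22 and -0.13 in PBS and 0.16 and 0.19 in G-CSF. Without Ace the non-classical values overlapped, at -0.18 and 0.24 in PBS and -0.09 and 0.03 in G-CSF. The classical genes thus separated the groups and the non-classical genes other than Ace did not. No test was made of this difference between the classes.

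Plac8, a small cysteine-rich protein of myeloid cells, had signals of 7590 and 5080 in PBS and 12400 and 13600 in G-CSF. Both G-CSF arrays lay above both PBS arrays, and all signals were far above background. The difference was 1.06 ± 0.34, or 2.09-fold (limma, adjusted p = 0.988), by its 1 probe set.

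The 4-span membrane proteins Ms4a4c and Ms4a6c, which lie near each other on chromosome 19, differed in pattern. Ms4a4c had signals of 497 and 1200 in PBS and 1680 and 1680 in G-CSF, with no overlap of the groups. The difference was 1.10 ± 0.50, or 2.14-fold (limma, adjusted p = 0.988), and it was 1.71 against PBS replicate 1 alone and 0.48 against PBS replicate 2 alone. Its other probe set gave 1.15 ± 0.45. Both names carry a suffix for probe sets that may detect related transcripts, so the assignment to 1 gene is uncertain. The relative Ms4a4b had 150 and 869 in PBS and 871 and 747 in G-CSF. Ms4a6c had signals of 943 and 1690 in PBS and 1640 and 1390 in G-CSF, which overlapped, with a difference of 0.25 ± 0.41 (limma, adjusted p = 0.988).

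Mgst1, a microsomal glutathione transferase abundant in hepatocytes, had signals of 25300 and 47700 in PBS and 41500 and 36800 in G-CSF, with the PBS arrays on both sides of the G-CSF arrays. The difference was 0.17 ± 0.37 (limma, adjusted p = 0.988), with a 95% interval from -0.78 to 1.12. The highest signals on the arrays were 58436 to 63693, so Mgst1 lay near the top of the range. PBS replicate 1 was the lowest array and PBS replicate 2 the highest for Mgst1, as for the summed hepatocyte markers (150000 and 252000 in PBS, 226000 and 220000 in G-CSF). The part of hepatocyte RNA in the Mgst1 values was not tested.

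Spn (CD43, leukosialin), a surface sialoglycoprotein carried at a high level by non-classical monocytes and T cells, had signals of 1990 and 401 in PBS and 974 and 863 in G-CSF. The PBS arrays lay on both sides of the G-CSF arrays. The difference was 0.02 ± 0.77 (limma, adjusted p = 0.998), made of -1.10 against PBS replicate 1 alone and 1.15 against PBS replicate 2 alone. The other probe set gave -0.01 ± 0.39. Summed signals of 8 T cell markers were 15600 in PBS replicate 1, against 1950 in PBS replicate 2 and 3040 and 1630 in G-CSF. Gzma, a granzyme of NK and cytotoxic T cells, had 34900 in PBS replicate 1 and 111 to 301 on the other arrays, while the NK cell marker Nkg7 was lowest in PBS replicate 1 (390 and 483 in PBS, 916 and 1190 in G-CSF). PBS replicate 1 was thus the highest array for Spn, the summed T cell markers and Gzma, but not for Nkg7, and the part of T cell RNA in the Spn value was not tested.

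**Figure D3:**
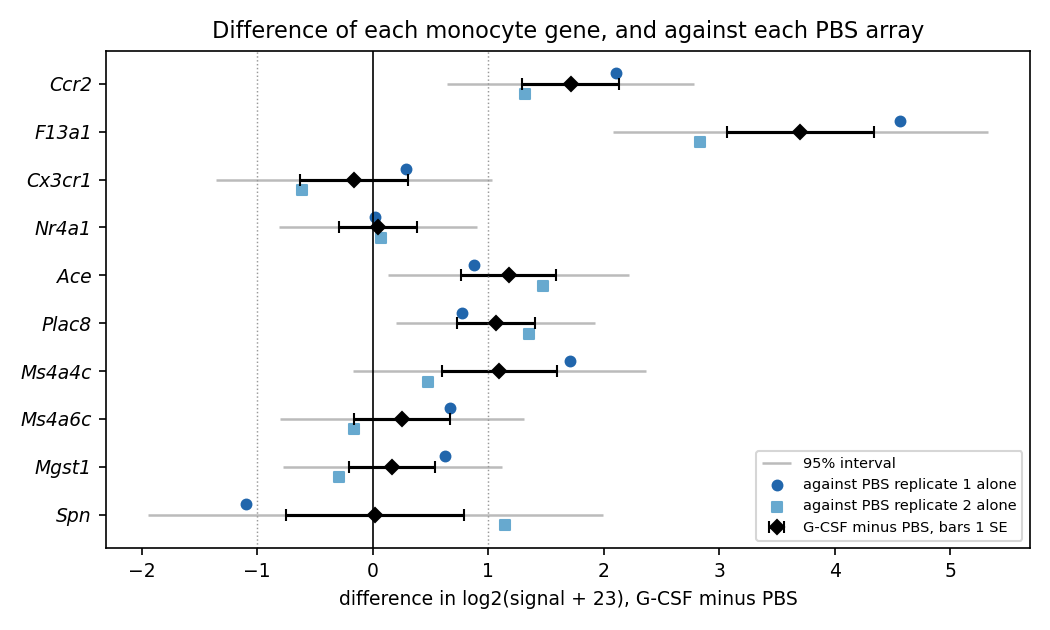
Difference of each of the 10 genes in log2(signal + 23), G-CSF minus PBS, as diamonds with bars of 1 SE and grey lines for the 95% interval, and the same difference against PBS replicate 1 or PBS replicate 2 alone. Ccr2, F13a1, Ace, Plac8 and Ms4a4c are above 0 against either PBS array, while Cx3cr1, Ms4a6c, Mgst1 and Spn lie on opposite sides of 0. Nr4a1 is also above 0 against either, but close to it (0.02 and 0.07).

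Calls depended on the PBS arrays. Without PBS replicate 1, limma called 4 of the 10 genes higher, where 2.78% of all genes were called higher: F13a1 at 2.83 (adjusted p = 0.00356), Ccr2 at 1.32 (adjusted p = 0.0294), Plac8 at 1.35 (adjusted p = 0.0102) and Spn at 1.15 (adjusted p = 0.0495). Without PBS replicate 2, 6 were called higher and 1 lower, where 22.6% and 15.9% of all genes were called. The 6 were F13a1 at 4.57 (adjusted p = 0.000185), Ccr2 at 2.11 (adjusted p = 0.00118), Plac8 at 0.77 (adjusted p = 0.00981), Ms4a4c at 1.71 (adjusted p = 0.00171), Mgst1 at 0.63 (adjusted p = 0.0168) and Ms4a6c at 0.67 (adjusted p = 0.0464), and the lower one was Spn at -1.10 (adjusted p = 0.00806), opposite to its call without PBS replicate 1. F13a1, Ccr2 and Plac8 were called higher in both of these fits, in which the lone PBS array is assumed to vary like the G-CSF arrays. The median SD was in fact 0.49 in PBS and 0.15 in G-CSF. Both fits take their spread from the same 2 G-CSF arrays, so their adjusted p-values do not measure the spread between PBS arrays. With the replicate number as a block, F13a1 alone of the 10 was called (adjusted p = 5.32e-05), where 0.730% of all genes were called higher. For 2 arrays against 2, an exact permutation test can give no two-sided p smaller than 0.333.

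**Figure D4:**
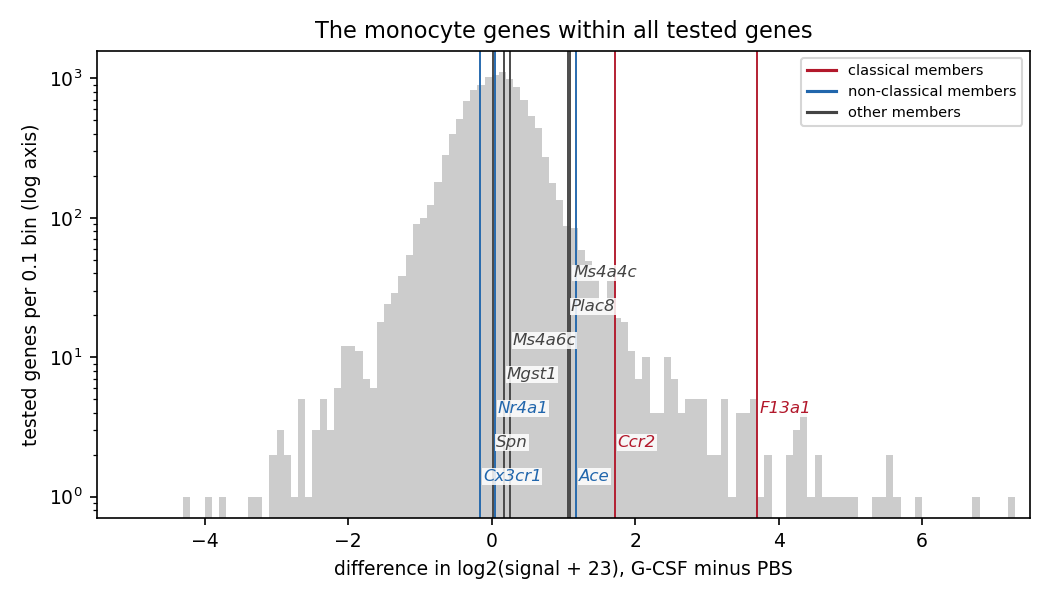
Number of tested genes (log axis) by difference in log2(signal + 23), G-CSF minus PBS, in bins of 0.1, with a line for each of the 10 genes. F13a1 at 3.70 and Ccr2 at 1.71 lie in the upper tail, Ace, Ms4a4c and Plac8 at 1.06 to 1.18 lie on its shoulder, and the other 5 lie between -0.16 and 0.25.

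Neutrophil markers differed between the groups beside these genes, and platelet markers did so mostly through G-CSF replicate 1. Of 11 tested neutrophil markers, 11 differed upward at least 2-fold without overlap, against 4.04% of all genes, and 0 passed the adjusted test. Their summed signals were 25900 and 8530 in PBS and 251000 and 218000 in G-CSF. S100a8, a subunit of calprotectin, had 16500 and 5590 in PBS and 63100 and 56000 in G-CSF, and only Cxcr2 lay below background on both PBS arrays. Of 7 tested platelet markers, 3 differed upward by that rule, with summed signals of 3160 and 3790 in PBS and 12400 and 5000 in G-CSF. Pf4 had 2710 and 3000 in PBS and 5500 and 4130 in G-CSF, and Ppbp had 109 and 159 against 4490 and 280. Gp9, Gp1bb, Gp5 and Gp6 lay below background on both PBS arrays, and Gp9, Gp5 and Gp6 also on G-CSF replicate 2. The part of granulocyte or platelet RNA in the F13a1, Ccr2 and Plac8 differences was not tested. Summed B cell markers were 594 and 1530 in PBS and 1650 and 1440 in G-CSF, and dendritic cell markers 511 and 555 against 669 and 638.

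Other classical monocyte genes were higher in part. The list has 11 genes, of which 8 were tested. Of these, 3 lay at least 2-fold higher without overlap, against 4.04% of all genes. By that rule 0 lay lower, against 1.52%, and 0 passed the adjusted test. The median was 0.69, or 1.28 against PBS replicate 1 alone and 0.29 against PBS replicate 2 alone. Emilin2, an extracellular matrix protein, had 324 and 991 in PBS and 3660 and 3380 in G-CSF (2.58 ± 0.58). Vcan, versican, a proteoglycan of classical monocytes, had 117 and 153 against 491 and 670 (1.93 ± 0.37), and S100a4 had 418 and 479 against 1080 and 1700 (1.55 ± 0.37). A second Vcan probe set differed by 0.66, below 2-fold. Lyz2, lysozyme, which neutrophils and macrophages also make, differed by 0.90 ± 0.42. The part of neutrophil RNA in the differences of this list was not tested. The remaining 4, Cd14, Ly86, Thbs1 and Fcgr1, differed by 0.09 to 0.47, and the probe set for the Ly6c genes names 2 genes and was not analysed here.

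Other non-classical genes showed no common direction. Of 11 genes 8 were tested, and 0 were at least 2-fold higher or lower with no overlap, against 4.04% and 1.52% of all genes. The median was -0.14 (0.41 against PBS replicate 1 alone and -0.30 against PBS replicate 2 alone). Adgre4, an adhesion receptor of non-classical monocytes and Kupffer cells, had 663 and 2180 in PBS and 625 and 604 in G-CSF, a difference of -0.95 ± 0.61. That difference was -0.11 against PBS replicate 1 alone and -1.79 against PBS replicate 2 alone. Eno3, a muscle-type enolase also made by these monocytes, had 295 and 330 against 271 and 211 (-0.35 ± 0.35). Ceacam1 was the highest at 1.25 ± 0.72, with 395 and 1680 in PBS and 2370 and 1660 in G-CSF, and its groups overlapped, by 1660 against 1680. Its 4 other tested probe sets did not overlap and differed by 1.51 or more, so the count of 0 rests for Ceacam1 on the probe set chosen. Their names carry suffixes for probe sets that may detect related transcripts. Fabp4, a fatty acid binding protein that endothelium also makes, differed by 0.28 ± 0.38.

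The receptor and transcription factors of the lineage gave 2 of 6 tested genes at least 2-fold higher with no overlap, with a median of 0.60 (1.28 against PBS replicate 1 alone and 0.09 against PBS replicate 2 alone). These were Klf4, needed for monocyte formation, with 439 and 765 in PBS and 1330 and 1660 in G-CSF (1.32 ± 0.41), and Spi1, which encodes PU.1, with 346 and 561 against 1220 and 1010 (1.28 ± 0.38). A second Klf4 probe set differed by 0.91, below 2-fold. Csf1r, the receptor for CSF-1 that all monocytes and macrophages carry, had 15400 and 32900 in PBS and 27500 and 27000 in G-CSF, which overlapped (0.28 ± 0.42). Irf8, a factor that directs progenitors to monocytes, had 1620 and 2840 against 3050 and 3450 (0.59 ± 0.40). A second Irf8 probe set differed by 0.23, and its groups overlapped. Zeb2 differed by 0.61 ± 0.51, and its other tested probe sets by 0.56, 0.50 and -0.15. None of the 6 passed the adjusted test, and the part of granulocyte RNA in their differences was not tested.

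**Figure D5:**
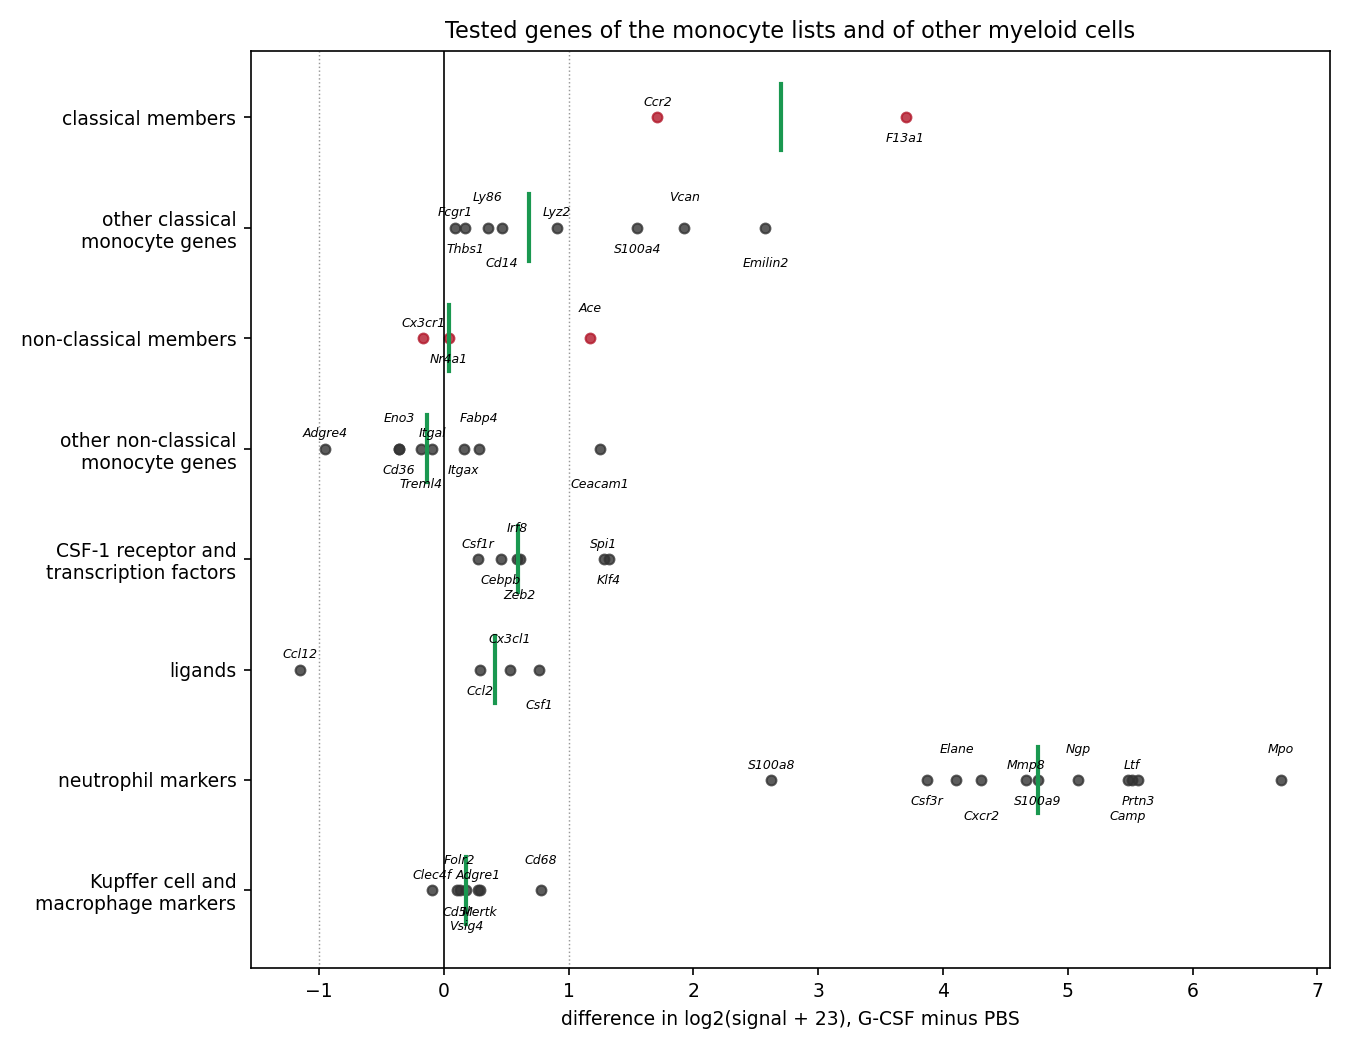
Differences in log2(signal + 23), G-CSF minus PBS, of the tested genes of 8 lists, with each gene as a point and the list median as a green line; the classical and non-classical genes of the set are red and dotted lines mark 2-fold. Emilin2, Vcan and S100a4 lie above 1 with Ccr2 and F13a1, the non-classical lists centre near 0, and the neutrophil markers lie at 2.63 to 6.71.

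Ligands gave no gene at least 2-fold apart with no overlap among 4 tested of 6. Of all genes, 4.04% were higher and 1.52% lower by that rule. Ccl2, the main Ccr2 ligand, had low signals of 107 and 139 in PBS and 117 and 201 in G-CSF (0.29 ± 0.45). Ccl12, another Ccr2 ligand, had 119 and 149 against 8.37 and 135, so its difference of -1.15 ± 0.85 comes from G-CSF replicate 1. Cx3cl1, the ligand of Cx3cr1, had 339 and 559 against 532 and 766 (0.53 ± 0.41), and Csf1 had 204 and 721 against 541 and 841 (0.76 ± 0.65). The groups overlapped for all 4.

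Among 10 tested Ms4a relatives, 2 differed upward at least 2-fold with no overlap, against 4.04% of all genes. Ms4a3, made by granulocyte and monocyte progenitors, had 165 and 169 in PBS and 3190 and 3990 in G-CSF, a difference of 4.24 ± 0.33 (limma, adjusted p = 0.0676). The neutrophil markers Mpo and Mmp8 had the same adjusted p, and no tested gene had a smaller one. Ms4a2, the beta chain of the IgE receptor of mast cells and basophils, was at background in PBS (18.3 and 63.6) and had 232 and 108 in G-CSF, at least 1.58-fold higher. Its place among the 2 thus rests on PBS signals below background. Ms4a1, which encodes CD20 of B cells, overlapped with 197 and 765 against 869 and 541. Ms4a4b differed by 1.08 ± 0.80 beside Ms4a4c at 1.10, and Ms4a6b by 0.28 beside Ms4a6c at 0.25.

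Mgst2 and Mgst3, relatives of Mgst1, overlapped between the groups and differed by 0.73 ± 0.52 and 0.21 ± 0.53. Tgm2, a tissue transglutaminase related to F13a1, differed by 0.11 ± 0.36, and Agtr1a, the receptor for the angiotensin II that Ace makes, by 0.40 ± 0.61. Of these relatives and partners 0 of 6 tested were at least 2-fold apart with no overlap, while F13a1 and Ace were. By that rule 4.04% of all genes were higher and 1.52% lower, and a count of 0 in so short a list lies near those shares.

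Beside Nr4a1, 0 of 9 tested Nr4a relatives and immediate early genes were at least 2-fold apart with no overlap, and their median was 0.21. Of all genes, 4.04% were higher and 1.52% lower by that rule. Fos had 1130 and 1060 in PBS and 1160 and 1390 in G-CSF (0.21 ± 0.33), and Nr4a2 had 135 and 174 against 139 and 197 (0.10 ± 0.40). Egr1 was lower on both G-CSF arrays, with 2660 and 2070 against 1610 and 1630 (-0.53 ± 0.33), and Ier2 was higher, with 880 and 769 against 1110 and 1140 (0.44 ± 0.32), neither by 2-fold. Nr4a3 had 494 in PBS replicate 2 and 48.4 to 68.9 on the other arrays.

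The genes whose profile over the 4 arrays lay nearest to a member were found by the root mean square distance of centred log2 values. Nearest to Ccr2 were Tagln2 (0.06), Fcgbp (0.07), Mctp1 (0.12), Slc26a11 (0.13) and Nlrx1 (0.15). Nearest to F13a1 were Ifitm1 (0.26), Alox5ap (0.35), Mapk13 (0.38), Klra17 (0.42) and Csf3r (0.43), the last of these the G-CSF receptor and a gene of the neutrophil list. Nearest to Cx3cr1 were Plek2 (0.03), Adamts15 (0.03), Batf3 (0.03), Gm15050 (0.04) and Acad9 (0.05). Of these, Fcgbp, Mctp1, Slc26a11 and Klra17 lay below background on both PBS arrays, and Plek2, Adamts15 and Gm15050 on PBS replicate 1. Their distances therefore depend in part on the 23 added to each signal. With 4 arrays such likeness is a description and gives no link between genes.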

How the data were processed

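Expression was measured on 4 arrays, 2 per group, from 40 ng of total RNA each. The authors deposited array intensity as linear MAS5 signals, per the submitters' processing notes. No MAS5 version is stated there. Each column had a 2% trimmed mean of 500, and this scaling was kept.

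Probe sets were named through the platform table, with symbols updated by Entrez ID. Of 45101 probe sets, 64 were controls, 932 listed several genes, 9160 none and 34945 a single gene. A gene was read from its brightest probe set (by mean over the 4 arrays) and tested if that mean exceeded 95.0, the median over probe sets other than controls. All 10 members passed this filter in each group's own mean.

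The log2 of signal plus 23 was compared with limma 3.58.1 in R 4.3.3 (eBayes with a trend, two-sided tests, Benjamini-Hochberg over all 12187 tested genes, threshold 0.05). Probe sets of the members were fitted likewise over 19947 probe sets. Standard errors of other probe sets come from that fit. A difference counted by size was at least 2-fold with both arrays of one group above both of the other. The procedure was tested on simulated data with the same SD for every gene and both groups. The real median SDs were 0.49 in PBS and 0.15 in G-CSF, so the simulation does not show how often changes on these arrays would be called. The members, lists and rule for named genes were chosen with earlier results of these data known. By that rule the text could name all members, up to 4 genes of each monocyte or related list with the smallest p, a few fixed genes, up to 2 abundant markers of other cells and the 5 genes nearest to Ccr2, F13a1 and Cx3cr1. Cxcr2, Timd4, Marco, Mpo, Mmp8, Ms4a6b, the Gp genes, Cd14, Ly86, Thbs1 and Fcgr1 were named after their values were seen. Alternatives were another normalization, pseudocount, filter, summary per gene or variance model, the replicate block, and each array left out. Promoters come from RefSeq (GRCm38.p6), and all 10 members matched. Python 3.11.15 with pandas 2.3.3 and matplotlib 3.10.9 made the figures.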

Additional observations from a re-analysis of the deposited data

How the results depend on the processing

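The count of 5 members at least 2-fold higher with no overlap was 4 with a pseudocount of 92 (2.95% of all genes), where Ace was 0.85. It was 4 with the 75th percentile filter (3.98%, with 8 members tested). It was 3 with the mean of all probe sets (3.27%), 3 with specific probe sets only (4.21%, with 7 members tested) and 3 to 5 with an array left out. The count of 0 lower was then 0 to 1. The 3 higher and 1 lower came without PBS replicate 2, where 16.5% of all genes were higher and 11.1% lower by this rule. Called higher were 0 members, 1 with the replicate block and 0 to 6 with an array left out, and called lower 0 and 0 to 1. The median of the non-classical genes, 0.04, was -0.0014 with quantile normalization, -0.0107 with median centring, -0.16 with the 75th percentile filter, which leaves Cx3cr1 alone, and -0.0605 with specific probe sets only, and 0.07 to 0.29 with an array left out. Nr4a1 was -0.0014 with quantile normalization and -0.0107 with median centring, and Spn -0.0309 with median centring and -0.0075 with a pseudocount of 92. With an array left out, Cx3cr1 ran from -0.62 to 0.29, Mgst1 from -0.29 to 0.63, Ms4a6c from -0.16 to 0.67, Nr4a1 from -0.16 to 0.25 and Spn from -1.10 to 1.15. Beyond the arrays or probe sets left out, the cause of these moves was not tested. F13a1, Ccr2, Plac8, Ms4a4c and Ace stayed above 0 under each alternative run, and of these only F13a1, at 2.83 to 4.57, stayed at least 2-fold in all. The replicate numbers are not stated to pair samples, and deviations of same-numbered arrays correlated at -0.038 across genes. Apart from F13a1, the block changed no call among the members. PBS signals near background limit the size given for F13a1 and Ace.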
